A study of Mus musculus with 3 samples.

Results

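The Dlk1-Meg3-Dio3 region is an imprinted gene cluster of mouse chromosome 12. It was described here from chr12:109400000 to chr12:110350000 of GRCm38, a stretch of 950.0 kb that held 469 of the 1186323 valid 2 kb windows of the series, with 6 of its 475 possible windows missing. The region was chosen on the measured calls themselves, because part of it carried H3K36me3 together with H3K27me3. Its H3K36me3 levels and mark calls are therefore given as a description, with no test. The mark was mapped by native ChIP-seq at ultra-low input (no cross-linking, chromatin cut with micrococcal nuclease) in fully grown oocytes with an intact nucleus, the germinal vesicle (GV). The 3 replicates, each a pool of about 280 GV oocytes, came from 25-day-old wildtype mice of the strain C57BL6/Babr, formed a single group, and had no control samples to be set against. Replicate 2 was made with less antibody than replicates 1 and 3.

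In an imprinted cluster, a gene is expressed from the copy of one parent, and the choice is set by DNA methylation laid down in the germ line. At this cluster, the protein-coding genes Dlk1, Rtl1 and Dio3 are known to be expressed from the paternal copy. Meg3, Rian and Mirg, which are long non-coding RNAs that host small nucleolar RNAs (snoRNAs) and microRNAs (miRNAs), are expressed from the maternal copy, and a control region between Dlk1 and Meg3 is methylated in sperm and not in oocytes. H3K36me3 is deposited over transcribed gene bodies and in growing oocytes guides DNA methylation. H3K27me3 is a repressive Polycomb mark, and H3K4me3 marks promoters and, in oocytes, also broad domains. ChIP reads tell neither the strand of a gene nor its parental copy.

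Sequences from the RefSeq promoter table (GRCm38.p6) are shown for starts of Dlk1, Meg3, Rian and Dio3. Each has 250 bases before and 50 bases after the start, with CpG dinucleotides in capitals. All lie on the plus strand. The Dlk1 start at chr12:109452573-109452872 lay in a window with H3K4me3 and H3K27me3, the Meg3 start at chr12:109540746-109541045 and the Dio3 start at chr12:110278980-110279279 in windows with H3K4me3 alone, and the Rian start at chr12:109603695-109603994 in a window with H3K36me3 and H3K27me3.
Dlk1: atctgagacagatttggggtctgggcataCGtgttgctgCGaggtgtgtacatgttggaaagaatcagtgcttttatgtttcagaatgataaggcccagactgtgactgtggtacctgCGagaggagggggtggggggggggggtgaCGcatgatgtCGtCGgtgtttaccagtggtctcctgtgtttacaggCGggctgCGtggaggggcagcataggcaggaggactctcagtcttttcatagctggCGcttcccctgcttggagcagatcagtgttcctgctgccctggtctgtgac
Meg3: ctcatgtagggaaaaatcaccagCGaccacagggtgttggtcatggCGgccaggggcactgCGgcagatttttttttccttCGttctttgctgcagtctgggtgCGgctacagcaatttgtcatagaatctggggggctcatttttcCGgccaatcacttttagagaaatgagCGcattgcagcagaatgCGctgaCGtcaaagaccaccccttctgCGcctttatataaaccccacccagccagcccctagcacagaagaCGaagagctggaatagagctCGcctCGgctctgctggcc
Rian: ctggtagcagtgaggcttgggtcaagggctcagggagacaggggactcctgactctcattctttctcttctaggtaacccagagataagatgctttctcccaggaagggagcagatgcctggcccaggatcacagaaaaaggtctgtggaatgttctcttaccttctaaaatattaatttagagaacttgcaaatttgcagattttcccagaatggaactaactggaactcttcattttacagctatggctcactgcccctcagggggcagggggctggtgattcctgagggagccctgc
Dio3: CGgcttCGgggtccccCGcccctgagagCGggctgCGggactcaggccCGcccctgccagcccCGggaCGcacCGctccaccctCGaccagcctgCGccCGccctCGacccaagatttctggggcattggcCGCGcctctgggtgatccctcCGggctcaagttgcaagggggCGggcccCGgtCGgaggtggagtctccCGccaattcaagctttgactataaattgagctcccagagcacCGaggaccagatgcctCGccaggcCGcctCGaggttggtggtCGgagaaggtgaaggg

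The Dio3 promoter held 25 CpGs in 300 bases, the Meg3 promoter 13, the Dlk1 promoter 9 and the Rian promoter 0. Over the 32851 promoters of that table the median was 7 CpGs, and 18.4% held as many as Dio3 or more. The Rian start was therefore CpG-free, whereas the other 3 starts shown held more CpGs than the median promoter. Among the starts not shown, that of Mirg held 10 CpGs and lay in a window with H3K36me3 alone. The second Meg3 start held 1 CpG and lay in a window with H3K4me3 alone. The table held a promoter for 5 of the 6 members, with 2 starts for Meg3, and all 6 sequences were identical to the genome at their coordinates.

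The hexamer TGCCGC, the core of the motif bound by the imprinting regulator ZFP57 when methylated, was searched on both strands (TGCCGC or GCGGCA). The stretch between Dlk1 and Meg3 with the most hits in 200 bases is shown because it held 5 of them. It lies at chr12:109528281-109528459 on the plus strand, 12.7 kb before the Meg3 start, with the hexamers in capitals.
Hexamer stretch: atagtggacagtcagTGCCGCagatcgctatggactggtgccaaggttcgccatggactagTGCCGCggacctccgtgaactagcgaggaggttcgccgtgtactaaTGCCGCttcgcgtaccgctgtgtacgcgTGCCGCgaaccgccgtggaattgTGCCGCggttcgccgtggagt

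These 5 hexamers spanned 149 bases, and the 179 bases shown held 23 CpGs at a GC content of 62.0%. The 2 kb window that holds the stretch read 0.407, 0 and 0.677 RPKM in replicates 1, 2 and 3, from 5 reads in all, and was called for H3K4me3 alone. The values, named RPKM by the authors, are reads scaled to the depth of the library (whether window length also enters was not settled), and a window counted as enriched when the mean of the 3 replicates was above 1. H3K36me3 was thus not above the threshold at this stretch. A window without reads in replicate 2 still allows up to 3 reads, or 1.19 RPKM, so low single values there are weakly bounded. Over the series, 353 windows (0.0298%) held 5 or more of these hexamers, and 1 of them lay in the region. Of the 39 windows between Dlk1 and Meg3, 9 (23.1%) held the hexamer, against 11.1% of all valid windows. The neighbouring window, chr12:109526001-109528000, held 4 hexamers and, at 0.539, the highest ratio of observed to expected CpG of the interval. Its values were 0.679, 1.98 and 0 RPKM in replicates 1, 2 and 3, so the replicates fell on either side of the threshold.

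Depth was uneven, with 7888140, 2692510 and 3166564 reads in windows for replicates 1, 2 and 3, so that a value above 1 rested on few reads in replicates 2 and 3. Within the region, 20, 130 and 163 of the 469 windows held no read in replicates 1, 2 and 3. Replicates were correlated across the 469 windows with r between 0.774 and 0.857, and across the 101 windows of the longest domain with r between 0.507 and 0.548, which is a description across neighbouring windows. The oocyte markers listed were all marked. All 10 oocyte markers (median 2.21 RPKM) had a gene-body mean above 1, beside 43.8% of all 36579 annotated genes with a window, protein-coding or not. So had 3 of 10 granulosa cell markers (Nr5a2, Hsd17b1 and Inhba), with a median of 0.671 (range 0.298 to 2.01). The part of other ovarian cells in the values of the region was not tested.

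Over the whole region, H3K36me3 was above the level of the series. Its mean in the 3 replicates was 1.51, 1.51 and 1.55 RPKM, or 1.52 ± 0.022 (SD, n = 3), against a mean of 0.902 over all valid windows. Enriched windows numbered 199 of 469 (42.4%), beside 31.8% of all valid windows. Windows above 1 in every replicate numbered 162 (34.5%), beside 19.7%. H3K27me3 was called in 262 windows (55.9%), beside 30.0%, and H3K4me3 in 137 (29.2%), beside 28.3%. H3K27me3 was therefore the mark with the widest cover of the cluster. The H3K27me3 and H3K4me3 calls come 1 per window from libraries published earlier, so they carry no replicate error here.

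Windows with both H3K36me3 and H3K27me3 and without H3K4me3, called doubly marked here, numbered 53 (11.3%), beside 2.06% of all valid windows. This excess is what the region was chosen for. A further 130 windows carried H3K36me3 alone, 14 carried it with H3K4me3 and 2 carried all 3 marks. Among windows without H3K36me3, 119 carried H3K27me3 alone, 88 H3K4me3 with H3K27me3, 33 H3K4me3 alone and 30 no mark. A double call says that both marks were found in the same 2 kb, and not that they lay on the same nucleosome, chromosome copy or oocyte. Just above the threshold stood windows at 1.05, 1.07 and 1.07 RPKM, and just below it windows at 0.991, 0.974 and 0.968.

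**Figure D1:**
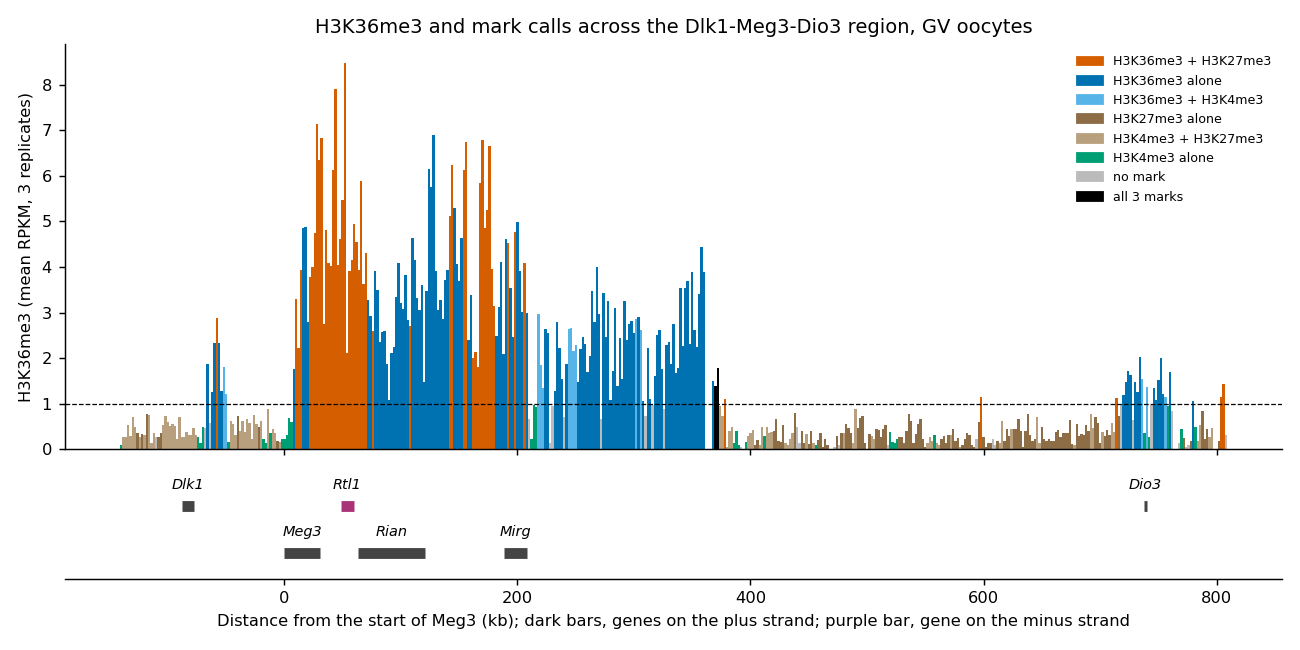
Mean H3K36me3 of the 3 replicates (RPKM, vertical axis) in each 2 kb window against the distance from the start of Meg3 (kb, horizontal axis), coloured by the mark calls, with the 6 member genes below; the dashed line is the threshold of 1. The tallest bars run from inside Meg3 to the end of Mirg, where doubly marked windows (orange) reach 8.47 RPKM. By contrast, Dlk1 and most windows of the 338 kb that end at chr12:110260000, before Dio3, lie below the threshold and carry H3K27me3.

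Between Dlk1 and Dio3, and nearer to Dlk1, H3K36me3 formed a block from Meg3 to Mirg, with Rtl1 inside it, that held 101 of the 199 enriched windows. The longest run of enriched windows, chr12:109548001-109750000, covered 101 windows (202 kb), began 7.0 kb after the start of Meg3 and ended 0.54 kb past the annotated end of Mirg. Its mean was 3.76, 3.94 and 4.32 RPKM in replicates 1, 2 and 3, or 4.01 ± 0.288 (SD, n = 3), from 5088 reads. All 3 replicates were above 1 in 95 of the 101 windows (94.1%). Among the 75026 runs of enriched windows in the series it ranked 36 by length. Among the 20474 runs of 5 windows or more it ranked 20 by level. It carried H3K27me3 in 47 windows and H3K4me3 in 0.

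The ends of the domain were set where the mean of these replicates crossed 1, so a step there is given by the definition, and its size is described. The 5 windows before it, at the start of Meg3, all carried H3K4me3 and no other mark, with a mean of 0.516, 0.317 and 0.406 RPKM in replicates 1, 2 and 3. The first 5 windows of the domain stood at 3.23, 3.17 and 3.25 RPKM. The mean stepped from 0.413 ± 0.100 to 3.22 ± 0.041 (SD, n = 3). At the far end, the last 5 windows stood at 3.80 ± 0.082 RPKM and the following 5 at 1.15 ± 0.235, with 4 of those 5 called for H3K4me3.

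**Figure D2:**
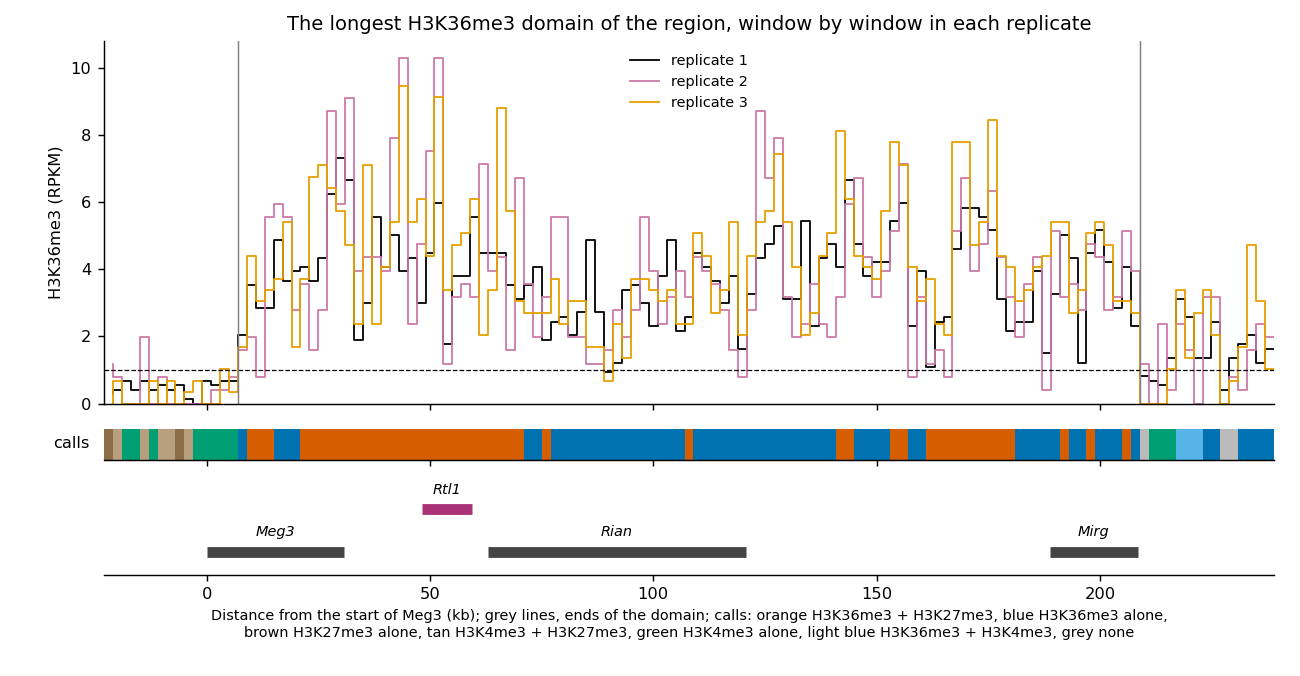
H3K36me3 (RPKM, vertical axis) in each replicate (coloured steps) along the longest domain and 30 kb on either side, against the distance from the start of Meg3 (kb, horizontal axis), with the mark calls as a strip and the genes below. All 3 replicates rise between the start and the body of Meg3 and fall again at the end of Mirg, and the longest orange stretch of double calls runs from the end of Meg3 through Rtl1 into Rian.

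The double calls fell mostly inside this domain, with 47 of 53 there and 6 outside. They formed 15 runs, of which 9 were single windows. The longest, chr12:109562001-109612000, was 25 windows (50 kb) without a break, from the window of Mir770 in the last part of Meg3, through the whole of Rtl1, to the window of Mir341 and Mir1188 in the first part of Rian. Its mean was 4.35, 5.06 and 5.31 RPKM in replicates 1, 2 and 3, or 4.90 ± 0.499 (SD, n = 3), from 1511 reads. Every one of its windows was above 1 in all 3 replicates, and the lowest stood at 2.11 RPKM. Of the 15548 doubly marked runs of the series it ranked 4 by length, and of the 613 of 5 windows or more it ranked 2 by level. The next longest, chr12:109702001-109722000, held 10 windows (20 kb) at 4.24 ± 0.723 RPKM, began in the non-coding RNA B830012L14Rik, and covered miRNA genes from Mir379 to Mir667.

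Outside the domain, most double calls rested on few reads. In the single window chr12:110138001-110140000 the values were 0.272, 3.17 and 0 RPKM, so the call came from replicate 2. The doubly marked window chr12:109482001-109484000 between Dlk1 and Meg3 held more, 36 reads. It was above 1 in every replicate, at 2.85, 4.76 and 1.02 RPKM. The means of the other 4 lay between 1.10 and 1.43 RPKM.

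Among the protein-coding members, Dlk1, a transmembrane relative of Notch ligands that restrains adipocyte differentiation, had little H3K36me3. Its 6 windows averaged 0.272, 0.396 and 0.338 RPKM in replicates 1, 2 and 3, from 24 reads, for which an exact Poisson interval of 95% is 15.4 to 35.7 reads and covers counting error only. All 6 carried H3K4me3 with H3K27me3, and the highest stood at 0.474 RPKM. Among the 36579 annotated genes with a window, of which 43.8% had a mean above 1, Dlk1 stood at the 26.3 percentile. Its start window held 117 CpGs.

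Rtl1, a gene derived from a retrotransposon and needed in the placenta, lies on the minus strand, opposite to the other 5 members. It had the highest level of the members and was covered by double calls from end to end. Its 5 windows averaged 3.97, 5.15 and 5.35 RPKM in replicates 1, 2 and 3, or 4.82 ± 0.748 (SD, n = 3), from 290 reads. It stood at the 99.95 percentile of all genes. Its highest window, chr12:109592001-109594000, read 5.98, 10.3 and 9.14 RPKM and was the highest of the region at 8.47 ± 2.24. With the wider bounds that RefSeq gives, chr12:109564900-109604418, Rtl1 covered 20 windows at 5.05 ± 0.526 RPKM, and all 20 were doubly marked.

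The window of highest level also holds Mir127, a miRNA gene on the strand opposite to Rtl1 whose products are complementary to the Rtl1 transcript. Both mature sequences are shown with the seed (bases 2 to 8) in capitals, at chr12:109592854-109592875 and chr12:109592888-109592909 on the plus strand. The highest window of Mirg holds Mir377, shown the same way, at chr12:109740515-109740536 and chr12:109740553-109740574 on the plus strand.
miR-127-5p: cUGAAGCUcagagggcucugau
miR-127-3p: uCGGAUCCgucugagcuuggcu
miR-377-5p: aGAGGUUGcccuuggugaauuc
miR-377-3p: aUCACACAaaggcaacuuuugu

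The 4 seeds differ from each other. Of the 114 mature miRNAs that RefSeq places in the region, 113 differed in sequence (miR-3070-5p is made from 2 genes). Of these 113, 18 shared their seed with another, in 9 pairs, and the region held 104 seeds in all. Shared seeds were found under both kinds of calls: miR-379-3p and miR-411-3p, with the seed AUGUAAC, lay in doubly marked windows at 5.85 and 6.79 RPKM, whereas miR-376c-5p and miR-376b-5p, with the seed UGGAUAU, lay in a window of 2.49 RPKM with H3K36me3 alone.

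Dio3, the deiodinase that inactivates thyroid hormones, was near the threshold. A single window had its midpoint in this short gene, at 1.09, 1.98 and 1.02 RPKM in replicates 1, 2 and 3, or 1.36 ± 0.539 (SD, n = 3). Averaged over every window that overlaps the gene, Dio3 stood at 0.860, below the threshold. The single window rested on 16 reads, with an exact Poisson interval of 95% from 9.15 to 26.0 reads, and was called for H3K36me3 with H3K4me3. The gene start lay in the window before it, which read 0.679, 0.396 and 0 RPKM, carried H3K4me3 alone and held 235 CpGs. Its neighbour on the opposite strand, Dio3os, had a single window at 1.55 ± 0.78 RPKM. The Dio3 window would hold 12.8 reads at a level of 1 RPKM, so at this depth its level could not be told from the threshold.

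Among the non-coding members, Meg3 was split at the start of the domain. Over its 15 windows the mean was 3.42, 3.22 and 3.63 RPKM in replicates 1, 2 and 3, or 3.43 ± 0.204 (SD, n = 3), from 661 reads, which placed it at the 99.2 percentile of all genes. Its first 3 windows stood at 0.538 ± 0.092 RPKM and carried H3K4me3 alone. The 12 windows inside the domain stood at 4.15 ± 0.266 RPKM, and 8 of them were doubly marked. The highest, chr12:109568001-109570000, read 6.25, 8.72 and 6.43 RPKM and also holds Gm26906, a non-coding RNA on the opposite strand. Reads from Meg3 and Gm26906 cannot be told apart. The RefSeq bounds of Rtl1, also on the opposite strand, cover Meg3 from chr12:109564900 to its end, this window included. All windows within those bounds were doubly marked, so Meg3 shares part of its level and of its double calls with Rtl1.

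Rian, host of the C/D snoRNAs of the cluster, had the smallest SD over replicates among the members, while its windows ran from 1.07 to 5.88 RPKM. Its 29 windows averaged 3.14, 3.14 and 3.24 RPKM in replicates 1, 2 and 3, or 3.18 ± 0.060 (SD, n = 3), from 1178 reads. All 29 were enriched and 6 carried H3K27me3 as well. The replicates differed little over the whole gene, although its highest window, chr12:109606001-109608000, read 4.48, 4.36 and 8.80 RPKM. In contrast to Meg3, Rian was marked from its start, where the window stood at 4.55 ± 2.55 RPKM and was doubly marked.

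Mirg, host of many of the miRNAs, was marked over all of its 10 windows. They averaged 3.69, 3.88 and 4.10 RPKM in replicates 1, 2 and 3, or 3.89 ± 0.201 (SD, n = 3), from 491 reads, and 3 were doubly marked. Every window was above 1 in all 3 replicates. Its start window, which lay outside the 10, read 1.49, 0.396 and 4.40 RPKM, so the replicates disagreed there.

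By level the members ran from Rtl1, Mirg, Meg3, Rian and Dio3 to Dlk1. The ranges over replicates of Rtl1 (3.97 to 5.35) and Mirg (3.69 to 4.10) overlapped, as did those of Meg3 (3.22 to 3.63) and Rian (3.14 to 3.24), although within each library Rtl1 was above Mirg (by 0.30 ± 0.17 on the log2 scale) and Rian below Meg3 (by -0.11 ± 0.07; SD, n = 3). The ranges of Mirg and Meg3, of Rian and Dio3 and of Dio3 and Dlk1 did not overlap. Mirg was above Meg3 in each replicate, by 0.18 ± 0.08 on the log2 scale of mean levels. These are small differences, and the Meg3 value includes its start without H3K36me3. The part of Meg3 inside the domain, which was bounded by the H3K36me3 calls, stood at 4.12, 3.90 and 4.43 RPKM in replicates 1, 2 and 3. It was above Mirg in each replicate, so this order depends on the start of Meg3. Both Meg3 values include the end of the gene that the RefSeq bounds also give to Rtl1. The 54 windows of the non-coding members exceeded the 7 of Dlk1 and Dio3 by 2.84 ± 0.38 on the log2 scale (SD, n = 3), or 7.15-fold, in 3 of 3 replicates. Since 6 of these 7 windows are Dlk1, the fold depends on the gene: it was 10.2 against Dlk1 alone and 2.60 against the single window of Dio3. Against Rtl1, the protein-coding member inside the domain, the direction turned, and the non-coding members were lower by -0.50 ± 0.21 on the log2 scale. With 3 replicates an exact sign-flip test cannot go below p = 0.25, so none was run.

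**Figure D3:**
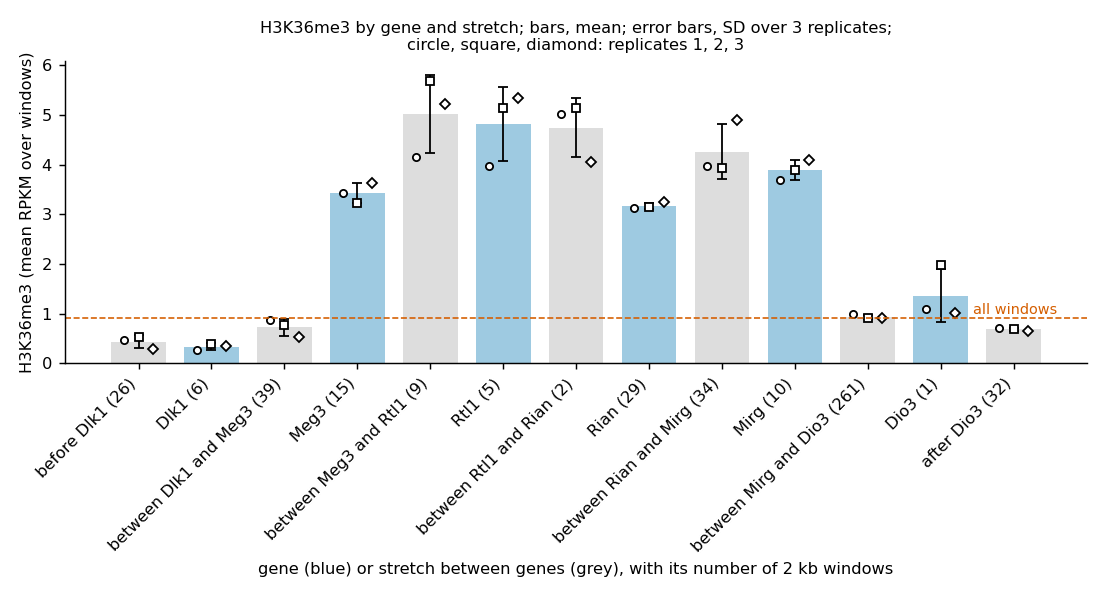
Mean H3K36me3 (RPKM, vertical axis) of each member gene (blue) and of each stretch between genes (grey), in their order along the chromosome with the number of windows; bars are means, error bars the SD over 3 replicates, symbols the replicates, and the dashed line the mean of all valid windows (0.902). Levels are above 3 RPKM from Meg3 to Mirg, in the stretches between genes as well as in the genes, and at or below 1.36 RPKM elsewhere.

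The stretches between the genes of the block were marked too, at levels above those of Meg3, Rian and Mirg. Between Meg3 and Rtl1, 9 windows averaged 5.02 RPKM, between Rtl1 and Rian 2 windows averaged 4.75, and between Rian and Mirg 34 windows averaged 4.26. Only the first of these lay above Rtl1 (4.82). The mark therefore ran on across the ends that GENCODE gives these genes, although with the RefSeq bounds the stretches on both sides of Rtl1 belong to it.

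Between Dlk1 and Meg3, in contrast, H3K36me3 was low apart from an island. The 39 windows averaged 0.722 RPKM, below Meg3 by -2.28 ± 0.44 on the log2 scale (SD, n = 3). A run of 7 enriched windows, chr12:109478001-109492000, read 2.31, 1.81 and 1.50 RPKM in replicates 1, 2 and 3, or 1.87 ± 0.408, and held no annotated gene. Without the span from the first to the last enriched window, chr12:109474001-109492000 (9 windows), the remaining 30 averaged 0.419 ± 0.151 RPKM. That 0 of these 30 were enriched follows from how the span was set. Of these 30, 26 carried H3K4me3 and 20 H3K27me3. The non-coding RNA Gm34081, which lies there on the minus strand, stood at 0.532 ± 0.261 RPKM.

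Past Mirg the cover was weaker and then ended. Up to chr12:109920000, 69 of 82 windows were enriched, at 2.07, 2.12 and 2.23 RPKM in replicates 1, 2 and 3, or 2.14 ± 0.08 (SD, n = 3). Only 1 of these 82 was doubly marked. The following 169 windows, to chr12:110260000, averaged 0.423, 0.319 and 0.236 RPKM, with 2 enriched and 147 called for H3K27me3. H3K27me3 thus covered most of these 338 kb. The bounds of these stretches were set by the H3K36me3 calls, so the low count of enriched windows here is largely given by the definition. On the near side of Dio3, counted from the first window with H3K36me3 alone, 8 of 10 windows were enriched, at 1.33 ± 0.308 RPKM. From Mirg to Dio3 as a whole, the 261 windows lay below Meg3 by -1.87 ± 0.11 on the log2 scale.

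The small RNA genes of the cluster followed the block. Of 67 miRNA genes, 65 lay in enriched windows, beside 44.4% of all miRNA genes, and 40 (59.7%) in doubly marked windows, beside 3.48%. Their windows had a median of 4.05 RPKM and ranged from 0.358 to 8.47. The exceptions were Mir1906-1 in the first part of Meg3 (0.697 RPKM) and Mir1247 beside Dio3 (0.358 RPKM), both in windows with H3K4me3 alone. Of 23 snoRNA genes, 23 lay in enriched windows, beside 44.0% of all snoRNA genes, with a median of 3.60 RPKM, and 4 (17.4%) were doubly marked, beside 2.15%. The miRNA genes within and just before Rtl1, 7 and 8 in number, all lay in doubly marked windows, whereas 12 of the 13 snoRNA genes of Rian had H3K36me3 alone. Many of these genes share a window and are not independent of each other.

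Doubly marked windows stood above windows with H3K36me3 alone in every replicate. In the region they stood at 4.27 ± 0.417 and 2.75 ± 0.094 RPKM, a difference of 0.63 ± 0.09 on the log2 scale (SD, n = 3). Within the longest domain the levels were 4.62 ± 0.489 and 3.47 ± 0.119, a difference of 0.41 ± 0.11. In the series as a whole the order was the other way, at 1.92 ± 0.216 and 2.17 ± 0.142 RPKM. Both sets of calls include the H3K36me3 level itself, and the difference between the region and the series was not tested.

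Doubly marked windows of the domain were also richer in GC. Their GC content averaged 48.0%, against 42.1% in the windows with H3K36me3 alone. Their ratio of observed to expected CpG was 0.226, beside 0.227 in the others. Of the 51 windows at or above the median GC content of the domain (46.5%), 35 (68.6%) were doubly marked, and of the 50 below it, 12 (24.0%). Among the windows at or above the median, the double ones exceeded the others by 0.47 ± 0.11 on the log2 scale. Below it, the difference was 0.14 ± 0.25 and changed sign between replicates, from -0.05 to 0.42. The part of base composition in the calls and in the levels was not tested.

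**Figure D4:**
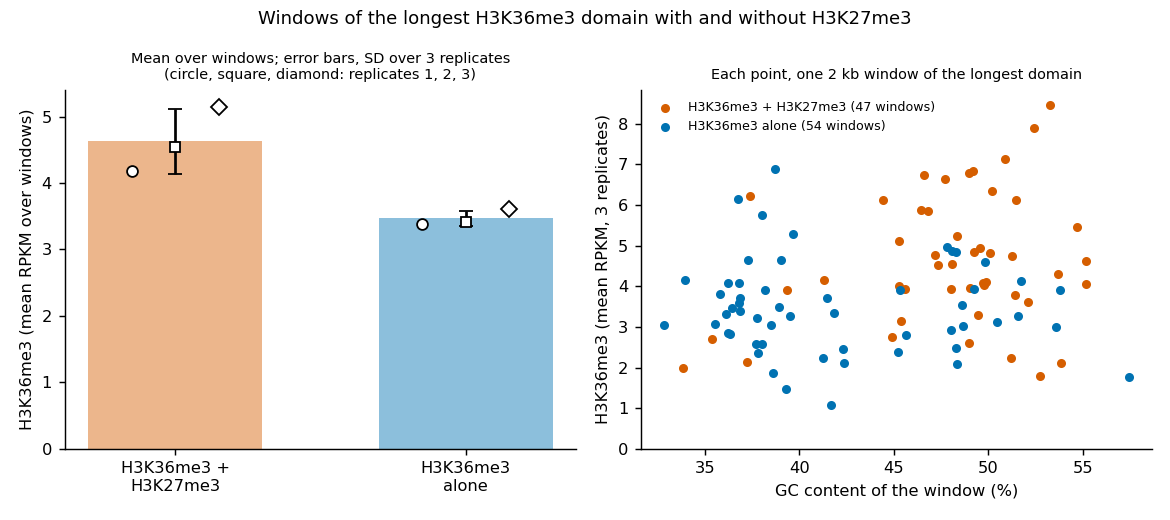
Left, mean H3K36me3 (RPKM) of the doubly marked windows and of those with H3K36me3 alone in the longest domain (error bars, SD over 3 replicates; symbols, replicates); right, H3K36me3 of each of these windows (RPKM, vertical axis) against its GC content (%, horizontal axis). Doubly marked windows average 4.62 RPKM against 3.47, and most of them lie above a GC content of 45%, where the others are fewer.

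The whole region was richer in GC (47.0%) than all valid windows (41.8%), with a ratio of observed to expected CpG of 0.219 against 0.177. Repeats covered 23.0% of its bases, against 30.8%, and only 13.1% in the longest domain. The hexamer of ZFP57 was present in 82 of its 469 windows (17.5%, against 11.1%), and in the longest domain in 16 of 101. Windows of the region without H3K36me3 held it at 18.5%, and those with it at 16.1%. A match of these letters is not a bound site.

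Against other genes with at least 10 windows, 12570 in all, Meg3 was among those with the highest share of double calls. Its share was 53.3%, reached by 42 genes, while Mirg had 30.0%, reached by 192, and Rian 20.7%, reached by 332. The Meg3 share includes windows at its end that the RefSeq bounds also give to Rtl1. Likeness was measured over 12564 genes outside the region as the distance between the shares of windows called for each of the 3 marks. Nearest to Meg3 stood Map3k13, Ttll9 and Tpcn2 (distances 0.046, 0.071 and 0.074), at 1.81, 2.05 and 2.10 RPKM. Nearest to Rian stood Clcn1, Phf19 and Gm29681 (distances 0.007, 0.007 and 0.025), at 3.96, 2.32 and 3.00 RPKM. The genes like Meg3 in their calls had lower levels than Meg3, as did nearly all genes, since Meg3 stood at the 99.2 percentile. The shares of double calls were 31.4% in Map3k13, 47.8% in Ttll9 and 42.9% in Tpcn2, below that of Meg3.

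Values at 2 other loci methylated on the paternal copy are set beside those of the region. H19, the maternally expressed non-coding RNA, stood at 0.181 ± 0.314 RPKM, with no reads in replicates 2 and 3. Igf2, its growth factor neighbour, stood at 0.224 ± 0.129, and 0 of its 8 windows were doubly marked. Rasgrf1, an exchange factor of Ras, stood at 2.04 ± 0.273, and 13 of its 56 windows were doubly marked, a share above that of Rian (6 of 29). Of 15 regulators of imprinting, 13 had a gene-body mean above 1, beside 43.8% of all genes (median 2.21 RPKM, range 0.890 to 2.93). Zfp57 stood at 2.93 ± 0.895, Dnmt3l, a cofactor of DNA methylation in the germ line, at 2.05 ± 0.254, and Kdm1b, a demethylase of H3K4 in oocytes, at 2.87 ± 0.272. Trim28, the partner of ZFP57, at 0.890 ± 0.161, and Aff3 at 0.932 ± 0.061 were the 2 below the threshold. By the mean of the replicates all 15 lay below Meg3, as did nearly all genes, since Meg3 stood at the 99.2 percentile. In replicate 2 Zfp57 (3.96 RPKM) was above Meg3 (3.22). Of the 8 protein-coding genes within 500 kb of the region, 6 had a mean above 1, beside the same 43.8% (median 1.93 RPKM), with the highest at Wdr20 (2.73 ± 0.119). Begain at 0.820 ± 0.043 and 1700001K19Rik at 0.507 ± 0.186 were the 2 below the threshold. The 43.8% is over annotated genes of every kind, and the share over protein-coding genes alone was not computed. Levels of protein-coding genes were higher: Dio3 stood at the 63.9 percentile of all genes and at the 54.7 percentile of protein-coding genes.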

How the data were processed

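Processed data of 3 H3K36me3 ULI-nChIP-seq libraries from pools of about 280 GV oocytes were used. After trimming, the authors aligned reads to GRCm38 with Bowtie2 (version 2.2.9 in the submitters' processing notes) and quantified 2 kb windows in SeqMonk, leaving out windows with aberrant input coverage. The deposited values are named RPKM by the authors, 1 column per replicate, assigned by its heading. Within each replicate all values (100%, tolerance 0.01) were whole multiples of the value of 1 read, from which reads were recovered. Whether the length of the window enters the scale was not settled, so levels are best read relative to each other. Whether duplicate reads were removed is not given in the sources used here, and intervals cover counting error only. A second deposited file names the marks called per window. Its H3K36me3 call equalled a mean above 1 in every window (0 differences). 0 columns of values belonged to no sample.

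The members and lists were chosen with earlier results of these data known. A window belonged to a gene (GENCODE M21) when its midpoint lay in it. Gene and stretch levels are means over windows per replicate, then mean and SD over replicates. Nothing says whether the pools were independent beyond being separate samples, so SDs may be technical. Runs ended at a missing or uncalled window. Genes named were the 6 members, genes at the ends of runs, antisense to a member, or small RNA genes in a member's highest window, the 3 genes most like Meg3 and Rian, and the exceptions of a count, which were chosen after their values were seen. The helper functions were tested on simulated data. Python 3.11.15, numpy 2.4.6 and pandas 2.3.3 were used. Sequences came from RefSeq tables and the genome of GRCm38.p6. Alternatives were thresholds of 1.5 and 2, every replicate above the threshold, each replicate left out, equal depth, summed reads, a minimum of 3 reads, other gene assignments, medians and pseudocounts of 0.1 and 1.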

Additional observations from a re-analysis of the deposited data

How the results depend on the processing

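Of 125 values recomputed under an alternative, 108 moved by less than the SD over replicates (counts by less than 1.5 times) and 1 changed direction. Enriched windows numbered 146 at a threshold of 2 and 162 with every replicate above 1. The longest doubly marked run held 25 windows under every alternative tried, a threshold of 2 included, and doubly marked windows numbered 46 to 55. The H3K27me3 and H3K4me3 calls were kept fixed throughout. The windows on either side of the run carried H3K36me3 alone (2.80 and 3.27 RPKM), so other H3K36me3 settings could not lengthen it. Its lowest window stood at 2.11 RPKM, so thresholds of 1.5 and 2 could not shorten it. The H3K27me3 calls that bound the run were not varied. Leaving out a replicate gave 198 to 207 enriched windows. It gave levels of 3.32 to 3.53 RPKM for Meg3, 4.56 to 5.25 for Rtl1 and 1.05 to 1.53 for Dio3, which fell to 0.860, below the threshold, when every overlapping window counted, and a difference between doubly marked windows and those with H3K36me3 alone of 0.59 to 0.68 (log2).

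With medians over windows, the Meg3 level was 3.79 RPKM, the log2 difference of the non-coding members from Dlk1 and Dio3 3.40, of the Dlk1 to Meg3 interval from Meg3 -2.94, of Rian -0.23, of Mirg 0.078 and of the Mirg to Dio3 interval -3.10. A pseudocount of 1 gave 1.57, -1.37 and -1.19 for the first, second and last of these, and 0.49 for doubly marked windows against H3K36me3 alone, since it pulls low levels up. Without windows under 3 reads the Mirg to Dio3 interval differed by -1.66. Alternatives chosen after seeing the data gave a log2 difference of the non-coding members of 3.35 from Dlk1 alone, 1.38 from Dio3 alone and -0.50 from Rtl1, which the contrast leaves out. They gave 0.41 for doubly marked windows within the longest domain, 0.47 at or above its median GC content and 0.14 below it.

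No paired analysis was possible because all samples belong to 1 group, so that no groups share replicate numbers. The log2 differences given are between windows of the same library. Depth limits single windows in replicates 2 and 3, where 3 reads, the limit that a count of 0 allows, equal 1.19 and 1.02 RPKM. The double calls rest on H3K27me3 calls without replicates.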
